A study of Saccharomyces cerevisiae with 25 samples.

Results

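The 10 genes described here encode enzymes of membrane phospholipid synthesis in budding yeast and the regulators that tie them to inositol: INO1, CHO1, CHO2, OPI3, PSD1, ITR1, PIS1, INO2, INO4 and OPI1. They were taken by name from the 6648 named genes of the deposited table. Saccharomyces cerevisiae builds phosphatidylserine from serine and CDP-diacylglycerol with Cho1, decarboxylates it to phosphatidylethanolamine with Psd1 in the mitochondrion, and methylates that lipid to phosphatidylcholine with Cho2 and then Opi3. Pis1 joins CDP-diacylglycerol to inositol, which the cell makes from glucose phosphate through Ino1 or takes up through the transporter Itr1. The Ino2-Ino4 dimer activates many of these genes through the inositol-sensitive element UASINO, and Opi1 represses them when inositol is plentiful and phosphatidate falls.

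The study followed 1 strain, with the genotype pho84pr-YFP, delta-phm3 in the BY4741 background, so every library carries the same reporter and the same labelled deletion. There were 24 libraries of total RNA from cells moved to medium without phosphate, taken at 15 to 360 min in steps of 15 min, and 1 library from high phosphate medium at 0 min. For the tests, the no phosphate libraries formed 3 windows of 8 neighbouring times: 15 to 120 min, 135 to 240 min and 255 to 360 min. No time had a replicate and high phosphate was not sampled after 0 min. The removal of phosphate therefore cannot be told apart from washing, a change of medium or longer culture. Whether the medium held inositol or choline is not given in the sources used here.

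Values are log2 RPM, where RPM is reads per 1000000 reads of listed genes. The shallowest library (195 min) held 106672 reads, the deepest (105 min) 1911639, and the median library 746657. The 195 and 345 min libraries were shallow, and all others held at least 501428 reads. A gene with fewer than 10 reads in a library has no value there. VTC4, the current name of PHM3, had reads in all 25 libraries (8.04 ± 0.24 log2 RPM, SD, n = 25), although the strain is labelled as lacking it. How much of VTC4 the deletion spans is not given in the labels. The results below describe the libraries so labelled.

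The upstream sequences of 6 members are shown as examples of genes with and without CATGTG, the core letters of UASINO. Those of PSD1, INO2, INO4 and OPI1 are not shown, although PSD1 and OPI1 passed in some tests below. Each sequence covers the bases from 300 to 101 before the annotated gene start, 5′ to 3′ on the strand of the gene, in the RefSeq copy of build R64. Capitals mark CATGTG on either strand, which reads CACATG where it lies on the opposite strand. OPI3 (chrX:573036-573235, minus strand) holds the core with its first base 212 and 148 bases before the start. CHO1 (chrV:208575-208774, minus strand) holds it at 159 and CHO2 (chrVII:802140-802339, plus strand) at 267. ITR1 (chrIV:1445568-1445767, minus strand) holds it at 282 and 221, and INO1 (chrX:136034-136233, minus strand) at 243 and 178. PIS1 (chrXVI:751957-752156, plus strand) has no match.
OPI3: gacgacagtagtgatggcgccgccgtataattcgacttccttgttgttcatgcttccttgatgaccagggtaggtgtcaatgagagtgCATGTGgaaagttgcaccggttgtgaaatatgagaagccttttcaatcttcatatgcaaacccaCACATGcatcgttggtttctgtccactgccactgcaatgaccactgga
CHO1: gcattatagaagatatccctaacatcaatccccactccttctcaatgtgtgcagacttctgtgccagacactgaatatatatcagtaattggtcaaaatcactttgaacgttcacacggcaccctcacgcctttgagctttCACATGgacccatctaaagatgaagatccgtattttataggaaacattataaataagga
CHO2: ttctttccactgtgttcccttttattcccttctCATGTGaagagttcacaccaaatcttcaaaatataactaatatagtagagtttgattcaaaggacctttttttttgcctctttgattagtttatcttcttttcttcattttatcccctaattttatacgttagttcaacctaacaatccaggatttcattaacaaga
ITR1: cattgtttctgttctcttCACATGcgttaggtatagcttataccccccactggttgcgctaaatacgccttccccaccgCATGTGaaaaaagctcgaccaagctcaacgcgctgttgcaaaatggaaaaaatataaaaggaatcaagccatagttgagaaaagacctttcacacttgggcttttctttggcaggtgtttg
INO1: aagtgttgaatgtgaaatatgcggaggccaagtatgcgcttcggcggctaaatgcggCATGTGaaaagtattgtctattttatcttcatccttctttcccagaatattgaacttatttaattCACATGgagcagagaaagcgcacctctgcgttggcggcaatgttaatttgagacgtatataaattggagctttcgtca
PIS1: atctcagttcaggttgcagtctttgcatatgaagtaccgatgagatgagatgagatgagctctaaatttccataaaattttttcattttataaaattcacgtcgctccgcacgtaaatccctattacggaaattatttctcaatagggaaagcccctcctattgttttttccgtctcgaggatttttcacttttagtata

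Over the full 300 bases before the start, 8 of the 10 members held CATGTG on either strand, all but PIS1 and OPI1, against 7.1% of 6020 promoters of the same length. In PSD1 the matches began 240 and 164 bases before the start, and in INO4 at 121. In INO2 the 2 matches, at 146 and 144, share letters. CACGTG, the core bound by the phosphate regulator Pho4, was in 3.6% of promoters and in 0 members. AGCCGCC, the core of the repressor element URS1, was in 2.3% of promoters and in INO1 and INO4. These matches describe letters in a window and say nothing of whether a factor was bound.

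The members spanned a wide range of levels. Per kilobase of annotated gene, the highest mean level over the libraries was that of OPI3 (9.61 ± 0.64 log2 RPM per kb, SD, n = 25). It was followed by PIS1 (9.03 ± 0.26), CHO1 (8.47 ± 0.50), ITR1 (7.75 ± 0.46), INO4 (7.49 ± 0.37), CHO2 (7.40 ± 0.42), PSD1 (6.46 ± 0.41) and OPI1 (5.78 ± 0.37, n = 24). INO1 had a median level of 3.14 log2 RPM per kb over the 4 libraries that listed it, and INO2 had no value. Most neighbours in this order differed by more than the SD of their difference over the libraries. The exceptions were OPI3 and PIS1 (difference 0.58 ± 0.63, OPI3 higher in 23 of 25), ITR1 and INO4 (0.26 ± 0.52, ITR1 higher in 17 of 25) and INO4 and CHO2 (0.09 ± 0.47, INO4 higher in 13 of 25). All listed values of the members were whole numbers of reads, and no other annotated gene overlaps them. INO1 and INO2 had too few values for any test, so the counts of passing members are out of the 8 others.

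**Figure D1:**
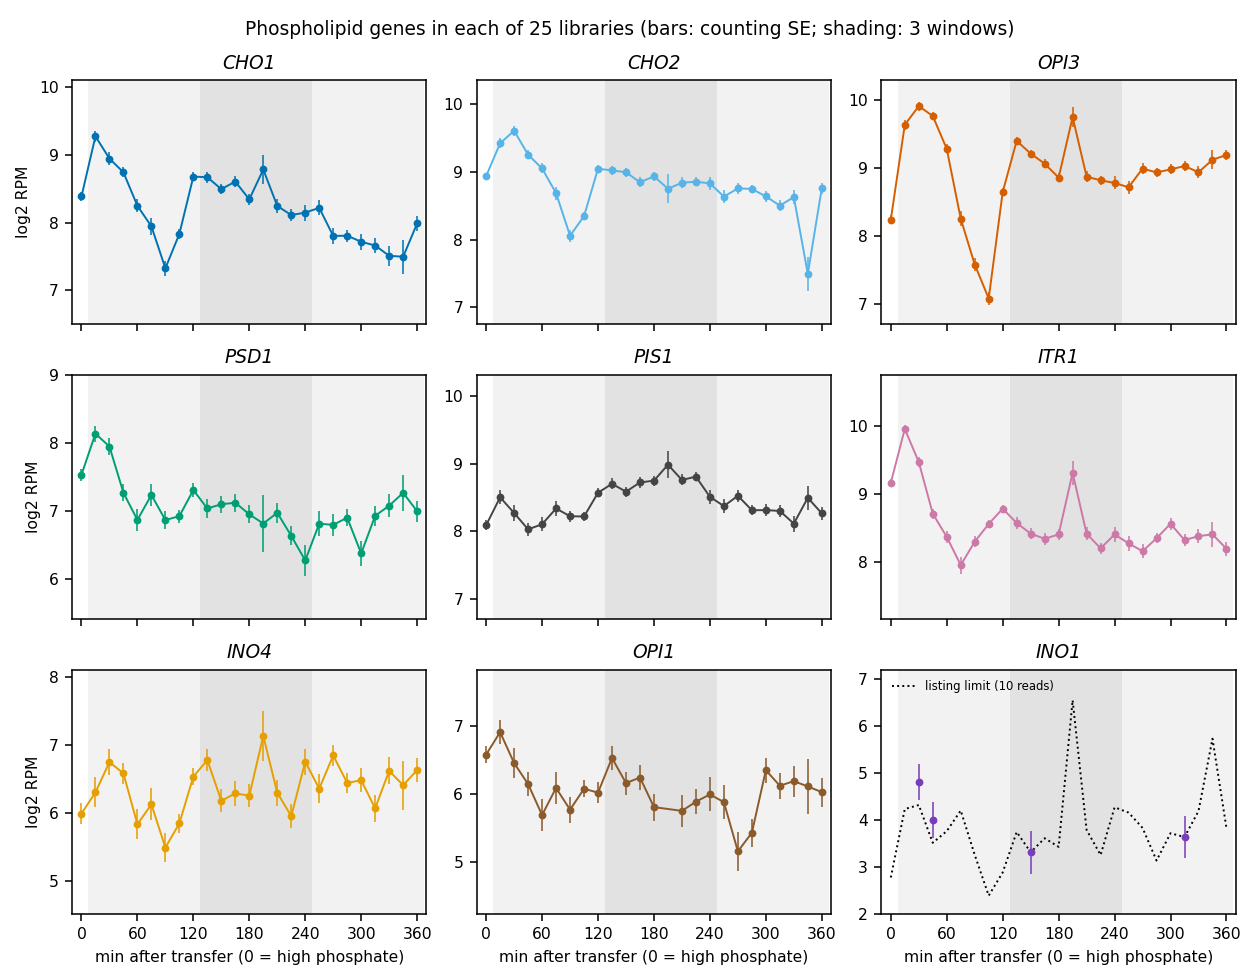
Level of 9 members in each library, in log2 RPM on the vertical axis, against minutes after transfer; points are libraries, bars are counting standard errors, shaded bands are the 3 windows, and INO2, listed in 0 libraries, is not drawn. OPI3 peaked at 9.91 at 30 min, reached 7.08 at 105 min and stood at 9.40 at 135 min, and INO1 had values in 4 libraries, near the dotted listing limit.

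OPI3 (chromosome X, 572315 to 572935), the methyltransferase gene for the last steps to phosphatidylcholine, had the widest course of the members. It stood at 8.24 log2 RPM at 0 min and at 9.64, 9.91, 9.77 and 9.28 at 15, 30, 45 and 60 min. It read 8.25, 7.58, 7.08 and 8.65 at 75, 90, 105 and 120 min, then 9.40, 9.21, 9.07 and 8.86 at 135, 150, 165 and 180 min. OPI3 was thus high early and low around 105 min. It read 9.75 at 195 min, on 92 reads in the shallowest library, and from 210 min on it lay between 8.72 and 9.19. Its highest and lowest libraries differed 7.15-fold, on 484 reads at 30 min and 258 reads at 105 min. The SD of OPI3 over the no phosphate course, 0.64, was at percentile 83.0 of the 2205 genes listed in all libraries, whose median SD was 0.40.

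The windows of 8 times average over this swing, so neighbouring blocks of 4 times were also compared; these blocks were chosen after the courses had been seen. At 75 to 120 min OPI3 averaged 7.89, against 9.65 at 15 to 60 min, and no library of the later block reached any of the earlier one. This was a 3.39-fold fall (difference -1.76, SE 0.26, limma adjusted p = 0.000697). At 135 to 180 min OPI3 averaged 9.14, against 7.89 at 75 to 120 min, again without overlap. This was a 2.37-fold rise (1.25, SE 0.26, limma adjusted p = 0.000793). Both calls of OPI3 held without each of the 24 no phosphate libraries in turn, with differences from -2.02 to -1.49 and from 0.98 to 1.50. The median of the 2205 genes listed in all libraries moved in the same direction: relative to the 0 min library it was 0.47 (log2) higher in the 60 min library, 0.07 higher in the 90 min library, level with it (0.00) in the 105 min library and 0.53 higher in the 135 min library. With libraries centred on that median, both calls of OPI3 held (-1.62, limma adjusted p = 0.000713, and 1.01, limma adjusted p = 0.00212), beside 7.37% of all genes lower in the first step and 11.7% higher in the second.

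In the same step to 75 to 120 min, 16.1% of 4669 genes passed (11.5% lower, 4.60% higher), and 3 of 8 tested members fell. The 752 genes behind this share became 36 without the 105 min library, 72 without the 90 min library, 95 without the 45 min library, 140 without the 30 min library and 1382 without the 120 min library. CHO1 (chromosome V, 207644 to 208474), the phosphatidylserine synthase gene, averaged 7.95 at 75 to 120 min, against 8.80 at 15 to 60 min (difference -0.86, SE 0.24, limma adjusted p = 0.0235). CHO2 (chromosome VII, 802440 to 805049), which encodes the enzyme of the first methylation of phosphatidylethanolamine, averaged 8.53, against 9.33 (-0.80, SE 0.22, limma adjusted p = 0.0233). The calls of CHO1 and CHO2 were less secure than that of OPI3. They were lost with libraries centred on the genes listed in all of them (limma adjusted p = 0.0516 for CHO1 and 0.0653 for CHO2), and without the 30, 45, 90 or 105 min library, with adjusted p up to 0.126 for CHO1 and 0.122 for CHO2. ITR1 (-0.73, adjusted p = 0.0604), PSD1 (-0.47, 0.139), INO4 (-0.37, 0.319), OPI1 (-0.31, 0.38) and PIS1 (0.11, 0.664) did not pass. Without the 60 min library ITR1 and PSD1 passed too, which made 5, beside 13.8% of all genes.

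In the step to 135 to 180 min, 30.7% of 4909 genes passed (22.9% higher, 7.78% lower), and OPI3 alone of the 8 tested members passed. The 1507 genes behind this share became 880 without the 90 min library and 827 without the 105 min library. The next largest differences were 0.58 for CHO1 (limma adjusted p = 0.0673), 0.41 for CHO2 (0.162) and 0.38 for INO4 (0.263). Without the 120 min library CHO1, CHO2 and PIS1 passed as well, beside 39.2% of all genes. In the 3 later steps between blocks limma called 0 genes, members included. In a step, 222 to 318 genes, or 4.65% to 6.84% of those tested, had an unadjusted limma p under 0.05.

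Over the whole course CHO1 moved with CHO2. CHO1 read 8.39 at 0 min and had a median of 8.18 over the no phosphate libraries, with its lowest value, 7.33, at 90 min and its highest, 9.27, at 15 min. CHO2 read 8.94 at 0 min and had a median of 8.80, with its lowest value, 7.50, at 345 min and its highest, 9.61, at 30 min. Both were highest within the first 30 min. The value of CHO2 at 345 min rests on 34 reads, and the other 7 libraries of its window lay between 8.50 and 8.76. CHO1 averaged 7.78 ± 0.24 at 255 to 360 min (SD, n = 8), against 8.42 ± 0.25 at 135 to 240 min. This difference of -0.65 (SE 0.20) did not pass (limma adjusted p = 0.0786), although it did without the 90 min library, without the 90 and 105 min libraries, and with array weights.

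PSD1 (chromosome XIV, 316169 to 317671), the mitochondrial phosphatidylserine decarboxylase gene, had its highest levels in the first libraries. It read 7.53 at 0 min, 8.14 at 15 min and 7.95 at 30 min, and no later library passed 7.31. At 135 to 240 min it averaged 6.86 ± 0.29, with a range of 6.27 to 7.12, against 7.32 ± 0.49 with a range of 6.86 to 8.14 at 15 to 120 min. These ranges overlap, and the difference of -0.46 (SE 0.18) did not pass (limma adjusted p = 0.057). It passed with libraries centred on the tested genes (-0.79, limma adjusted p = 0.011) or on the genes listed in all 25 (-0.65, limma adjusted p = 0.011), and without the 60, 90 or 105 min library.

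PIS1 (chromosome XVI, 752257 to 752919), the phosphatidylinositol synthase gene and the enzyme gene of the set without a UASINO core in its window, was the steadiest. Its SD over the no phosphate course was 0.25, at percentile 10.5 of the genes listed in all libraries. It read 8.09 at 0 min. The lowest, median and highest values were 8.03, 8.25 and 8.57 at 15 to 120 min, 8.51, 8.74 and 8.98 at 135 to 240 min, and 8.11, 8.31 and 8.53 at 255 to 360 min. The middle window was thus the highest, with a small overlap with either neighbour, and its highest value came from the shallow 195 min library on 54 reads.

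PIS1 was the member that passed in the comparisons between windows. It averaged 8.73 ± 0.14 at 135 to 240 min, against 8.28 ± 0.18 at 15 to 120 min (difference 0.44, SE 0.11, limma adjusted p = 0.00325), a call that held without each library in turn. It also stood above 0 min at 135 to 240 min (0.64, SE 0.23, 95% interval 0.16 to 1.11, limma adjusted p = 0.0431), but this call was lost without the 165, 180, 210, 225, 285 or 315 min library (adjusted p up to 0.0569). Both rises of PIS1 depend on the scaling. With libraries centred on the genes listed in all 25, the differences were 0.25 (limma adjusted p = 0.133) and 0.20 (0.621), and centred on the tested genes 0.11 (0.712) and 0.02 (0.978). In the last window, 255 to 360 min, PIS1 averaged 8.34 ± 0.13, against 8.73 ± 0.14 at 135 to 240 min (-0.39, SE 0.11, limma adjusted p = 0.0521).

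ITR1 (chromosome IV, 1443713 to 1445467), the main inositol transporter gene, stood at 9.17 at 0 min, 9.96 at 15 min and 9.48 at 30 min. By 75 min it had its lowest value, 7.96. At 255 to 360 min the lowest, median and highest values were 8.16, 8.34 and 8.57, and at 135 to 240 min 8.20, 8.41 and 9.32. From 45 min on, all libraries but the 195 min one thus lay below the 0 min value. The 195 min value rests on 68 reads. At 255 to 360 min ITR1 averaged 8.33 ± 0.13 (SD, n = 8), against 9.17 at 0 min, a difference of -0.84 (SE 0.44, 95% interval -1.73 to 0.06) that did not pass (limma adjusted p = 0.153).

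INO1 (chromosome X, 134332 to 135933), the gene of the enzyme that makes inositol phosphate and the classic target of Ino2-Ino4, was at the edge of detection. It was listed at 30 min with 14 reads (27.9 RPM, exact 95% Poisson interval 15.3 to 46.8) and at 45 min with 14 reads (16.0 RPM, 8.74 to 26.8). It was listed again at 150 min with 10 reads (9.93 RPM, 4.76 to 18.3) and at 315 min with 10 reads (12.4 RPM, 5.96 to 22.9). These intervals cover counting error only, and they overlap. INO1 had no value in the other 21 libraries. The level that 10 reads stand for was 6.84 RPM at 0 min and 5.23 RPM in the deepest library, at 105 min, so INO1 was below these there. The lower bounds at 30 min (15.3 RPM) and 45 min (8.74 RPM) lay above both of these limits. Those at 150 min (4.76 RPM) and 315 min (5.96 RPM) did not lie above both. The limits carry counting error of their own. In the shallow 195 min library the limit, 6.55 log2 RPM, was above the highest listed value, 4.80 log2 RPM. No fuller course over time can be read from 4 values at this depth, and no fold against 0 min is given.

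Of the regulators, INO2 (chromosome IV, 698554 to 699468), the partner of the activator dimer that carries its activation domains, was listed in 0 libraries. It lay below the same limits if it was among the genes counted, which the sources do not state. INO2 was 1 of 1072 named genes without a value, which were 16.1% of the 6648 named genes. INO4 (chromosome XV, 111431 to 111886), the other partner, read 5.99 at 0 min and averaged 6.18 ± 0.44 at 15 to 120 min, 6.46 ± 0.39 at 135 to 240 min and 6.48 ± 0.23 at 255 to 360 min (SD, n = 8 each). OPI1 (chromosome VIII, 66242 to 67456), the repressor, read 6.58 at 0 min and averaged 6.14 ± 0.39, 6.05 ± 0.28 (n = 7, with no value at 195 min) and 5.91 ± 0.41 in the same windows. INO4 and OPI1 passed in no window comparison as deposited. The 0 min value of INO4 lay inside the range of 15 to 120 min, and that of OPI1 above all no phosphate libraries except the 15 min one.

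**Figure D2:**
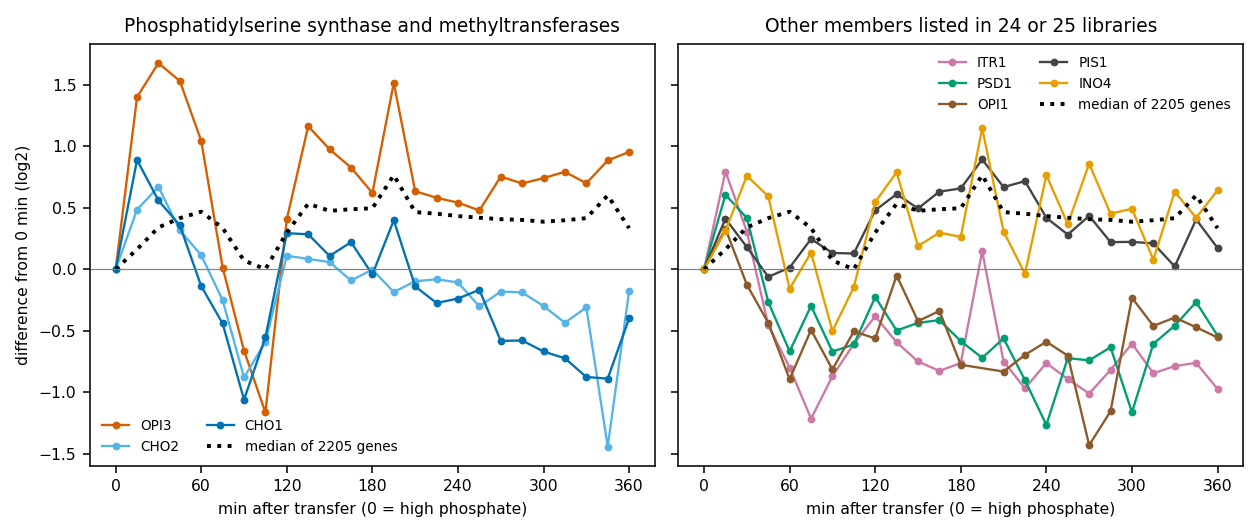
Difference of each library from the 0 min library, in log2, against minutes after transfer, for CHO1, CHO2 and OPI3 on the left and the other members with 24 or 25 values on the right; the dotted line is the median of the 2205 genes listed in all libraries. OPI3 falls below 0 at 90 and 105 min, where the dotted line is at 0.07 and 0.00, and ITR1, PSD1 and OPI1 lie below the dotted line in every library from 60 min on that lists them.

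Against high phosphate, 1 call was made among the members as deposited, that of PIS1 at 135 to 240 min, and 5 of the 8 tested members stood below 0 min in the last window. At 15 to 120 min 0.691% of 4773 genes passed (0.67% higher, 0.021% lower) and 0 of the 8 tested members did. Of these members 0 had an unadjusted limma p under 0.05, beside 14.0% of all genes. The 33 genes behind the share of 0.691% became 88 without the 90 min library, 124 without the 105 min library and 624 without both. The members' count stayed at 0. At 135 to 240 min 25.3% of 4825 genes passed (20.4% higher, 4.95% lower) and 1 member, PIS1, did. At 255 to 360 min 30.7% of 4791 genes passed (25.4% higher, 5.26% lower) and 0 of the 8 members did. Of these members 0 had an unadjusted limma p under 0.05, beside 41.0% of all genes. The median difference of the 8 members was then -0.51, against 0.43 over all genes tested. Below 0 min stood ITR1 (-0.84), OPI1 (-0.67), PSD1 (-0.64), CHO1 (-0.61) and CHO2 (-0.42), and above it OPI3 (0.75), INO4 (0.49) and PIS1 (0.25). None of these passed, and their 95% intervals were wide, as in the case of OPI3 (-0.53 to 2.03) and CHO1 (-1.50 to 0.28). A single library stands for high phosphate, and it was given the spread within the windows. That spread includes change over time within a window, such as that of OPI3 from 9.91 at 30 min to 7.08 at 105 min. The SE thus differed between members, at 0.63 for OPI3 and 0.23 for PIS1. The missing calls therefore do not show that the members kept their 0 min levels.

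Which members passed against high phosphate depended on the scaling. The median of all genes tested stood 0.43 above 0 min in the last window, and its part in this was not tested. With libraries centred on the genes listed in all 25, ITR1 (-1.28, limma adjusted p = 0.0375), OPI1 (-1.11, 0.0412) and PSD1 (-1.08, 0.0406) were lower at 255 to 360 min than at 0 min. These were 3 of the 8 members, and 9.06% of all genes were lower and 13.0% higher in that setting. Centred on the tested genes, ITR1 (-1.43, limma adjusted p = 0.0246) and OPI1 (-1.26, 0.0292) were lower, and PSD1 missed the threshold (-1.23, 0.0577), with 9.02% of all genes lower and 7.93% higher. The median of the members was -0.95 centred on the genes listed in all 25, against 0.00060 over all genes, and -1.10 centred on the tested genes, against -0.13. The signs of PIS1 and INO4 turned in some settings, and their values stand with the processing alternatives.

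**Figure D3:**
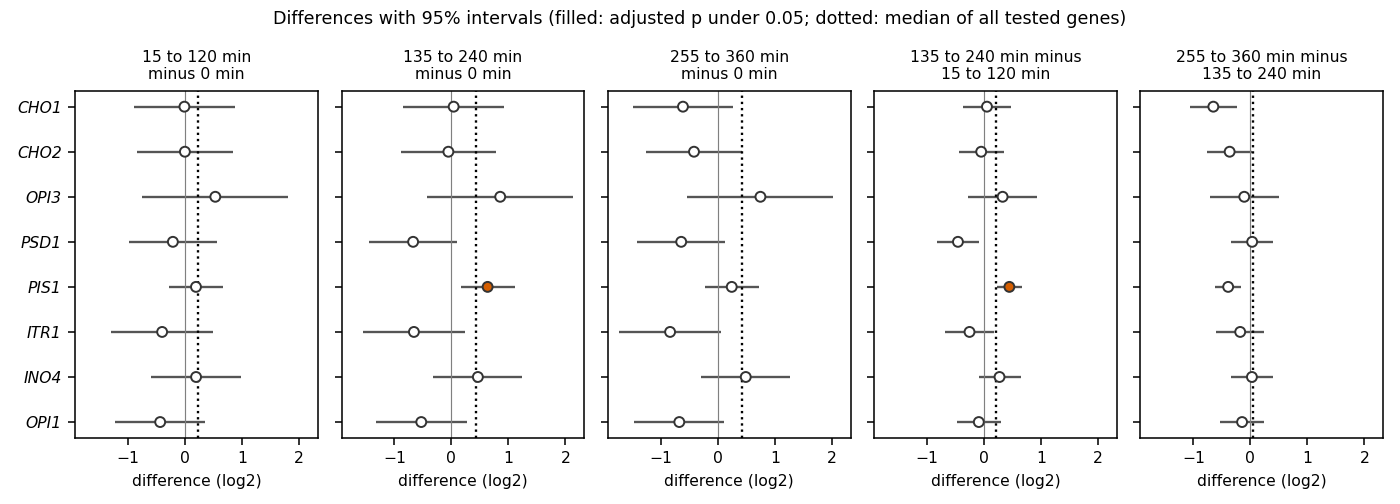
Difference between windows for the 8 tested members, in log2, with 95% intervals from limma; filled points passed at an adjusted p under 0.05 and the dotted line is the median of all genes tested. PIS1 is filled in 2 panels, at 0.64 for 135 to 240 min minus 0 min and at 0.44 for 135 to 240 min minus 15 to 120 min, and no other member is.

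Between windows, 25.8% of 4713 genes passed at 135 to 240 min against 15 to 120 min (20.8% higher, 5.07% lower), and 1 of the 8 members, PIS1, did. Between the last window and 135 to 240 min, 2.25% of 4764 genes passed (1.34% higher, 0.903% lower), and 0 members did. CHO1 and PIS1 had an unadjusted limma p under 0.05, beside 19.2% of all genes. The 107 genes behind the share of 2.25% became 166 without the 105 min library and 68 without the 285 min library. They became 66 without the 165 or the 360 min library. With array weights 1087 passed. A smooth course over the 24 no phosphate libraries, a spline with 4 degrees of freedom, was a better account than a constant level for 31.7% of 4568 genes. With only the 2205 genes listed in all libraries tested, among them every tested member but OPI1, it passed for 41%. It passed for 6 of the 8 members: CHO1 (limma F = 11.6, adjusted p = 0.000281), PSD1 (8.30, 0.00184), PIS1 (6.79, 0.00494), ITR1 (6.51, 0.00604), OPI3 (5.33, 0.0145) and CHO2 (4.87, 0.0204). It did not pass for OPI1 (adjusted p = 0.138) or INO4 (0.386). The call of OPI3 was lost without the 90 and 105 min libraries (limma adjusted p = 0.119). Without the 30 min library 3 members passed, CHO1, PSD1 and PIS1, beside 27.8% of all genes. Without the 15 min library 4 did, these and OPI3, beside 30% of all genes. With libraries centred on the tested genes 4 passed, without PIS1 (limma adjusted p = 0.191) and CHO2 (0.0545), while 20.6% of all genes did. A spline with 2 degrees of freedom lost CHO2 (limma adjusted p = 0.0641) and OPI3 (0.528), and one with 6 lost CHO2 (0.0526).

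**Figure D4:**
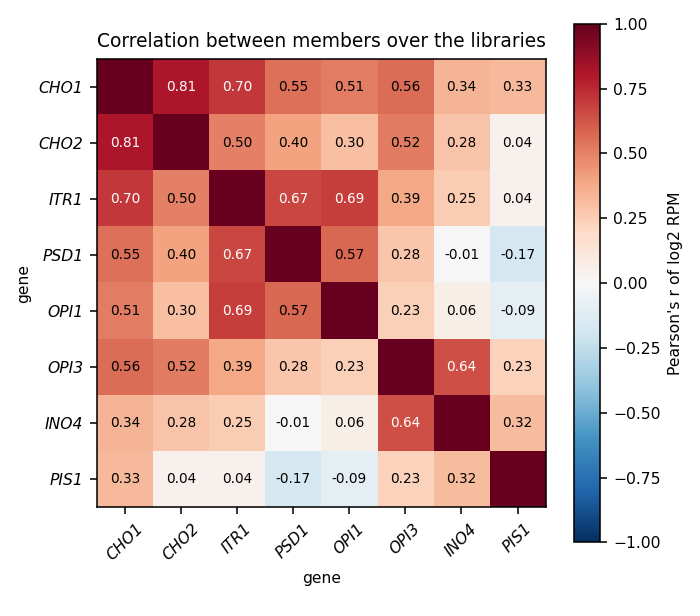
Pearson's r between pairs of members over the libraries that list both (25, or 24 for pairs with OPI1), on a colour scale from -1 to 1, as a description with no test. CHO1 and CHO2 form the strongest pair at 0.81, and the row of PIS1 lies between -0.17 and 0.33.

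The members did not share a single course. Across the libraries, which share their depth and scaling between genes and are neighbours in time, the highest correlation of log2 levels was that of CHO1 with CHO2 (Pearson r = 0.807, n = 25, and 0.836 with libraries centred). CHO1 with ITR1 gave 0.704 (0.758 centred), ITR1 with OPI1 0.692 (0.79 centred, n = 24) and PSD1 with ITR1 0.669 (0.756 centred). OPI3 with INO4 gave 0.644, but 0.475 centred and 0.456 without the 90 and 105 min libraries. OPI3 with CHO2, genes of consecutive methylation steps, gave 0.517, or 0.425 centred and 0.36 without the 90 and 105 min libraries. PIS1 correlated with the other members at -0.175 to 0.326, or -0.132 to 0.443 centred. These are descriptions of 1 course and carry no test.

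Among the 2205 genes listed in all libraries, those most like each of the 7 members listed in all of them were as follows, by Pearson's r. For OPI3 they were PHB2 (0.882), PRE6 (0.879) and REH1 (0.873), and 46 genes passed 0.8. For CHO2 they were YDR433W (0.895), NPL3 (0.895) and MBF1 (0.884), with 11 genes over 0.8, and for CHO1 MBF1 (0.864), GLR1 (0.837) and YRA1 (0.825), with 4. MBF1 stood in both lists. For PSD1 the closest were RIB4 (0.792), YHR162W (0.768) and HCH1 (0.715), and for ITR1 RIB4 (0.713), CHO1 (0.704) and MBF1 (0.688). For PIS1 they were VMA8 (0.770), YNL010W (0.748) and CDC10 (0.696), and for INO4 YIM1 (0.770), YER121W (0.770) and HSP78 (0.769). With libraries centred, the INO4 values became 0.593, 0.597 and 0.582, and those of PIS1 0.675, 0.774 and 0.596. The OPI3 values also fell with centring, to 0.838, 0.814 and 0.824. All those of CHO1, CHO2, PSD1 and ITR1 rose. Among these 7 members, CHO1 was the only one to stand among the 3 closest genes of another, ITR1. OPI1, with 24 values, was not ranked this way.

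The wider phospholipid pathway was read from 68 further genes. In the last window against 0 min, 63 of these were tested, and 21 were higher and 2 lower, with a median difference of 0.47 against 0.43 over all genes. Over all genes 25.4% were higher and 5.26% lower. With libraries centred on the genes listed in all 25, 11 were higher and 7 lower, beside 13.0% and 9.06% of all genes. Centred on the tested genes 4 were higher and 5 lower, beside 7.93% and 9.02% of all genes. Genes named below keep their call in both centrings unless stated.

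The largest rises were those of GDE1 and PLC1, both genes of phospholipid turnover. Of 8 tested turnover genes 6 were higher in the last window and 0 lower against 0 min, with a median of 1.27. Centred on the genes listed in all 25 the count was 3 higher, and on the tested genes 2, with 0 lower in both. GDE1, a glycerophosphocholine phosphodiesterase gene, rose by 2.77 (SE 0.37, limma adjusted p = 5.73e-06) and PLC1, the phospholipase C gene, by 2.69 (SE 0.35, adjusted p = 3.78e-06). PGC1, a phosphatidylglycerol phospholipase gene, rose by 1.87 (SE 0.35, adjusted p = 0.000225), and PLB3, a phospholipase B gene, by 1.31 (SE 0.37, adjusted p = 0.00794). Centred on the genes listed in all 25, PGC1 still passed (1.43, limma adjusted p = 0.00282) and PLB3 did not (0.87, 0.0609); centred on the tested genes neither did (1.29, 0.0655, and 0.72, 0.175). GDE1 (1.84, limma adjusted p = 0.0112) and PLC1 (1.54, 0.0277) were also the only pathway genes that passed at 15 to 120 min, calls lost with centring on the tested genes (0.237 and 0.243).

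Of 14 tested genes around phosphatidate, the precursor whose level Opi1 senses, 6 were higher and 0 lower as deposited. Centred on the genes listed in all 25, 4 were higher and 1 lower, and centred on the tested genes 1 was higher and 1 lower, so the count depends on the scaling. PAH1, the phosphatidate phosphatase gene, rose by 1.96 (SE 0.45, limma adjusted p = 0.00147). GPT2, a glycerol phosphate acyltransferase gene (1.72, SE 0.43), AYR1, a reductase gene of lysophosphatidate synthesis (1.63, SE 0.46), and DPP1, a diacylglycerol pyrophosphate phosphatase gene (1.37, SE 0.37), passed as deposited and centred on the genes listed in all 25, but not centred on the tested genes (limma adjusted p = 0.101, 0.124 and 0.193). CDS1, which makes the CDP-diacylglycerol used by Cho1 and Pis1, was lower at 135 to 240 min than at 15 to 120 min (-0.73, SE 0.18, limma adjusted p = 0.00362).

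Among 11 precursor genes, 3 were higher and 2 lower at 255 to 360 min. This balance turned with the scaling, to 2 higher and 4 lower centred on the genes listed in all 25, and 0 higher and 3 lower centred on the tested genes. SAM1, a gene of the synthetase that makes the methyl donor used by Cho2 and Opi3, fell by 2.21 (SE 0.39, limma adjusted p = 0.000133). SAH1, the gene of the hydrolase that clears the by-product of those methylations, fell by 1.60 (SE 0.28, adjusted p = 0.00011). The value of SAM1 may include reads of its close paralog SAM2, since 1 of 25 values of SAM1 and 5 of 24 of SAM2 were not whole reads. SAM1 and SAH1 also fell at 135 to 240 min against 15 to 120 min (-1.04 and -0.70). Between these windows OPI3 (0.33) and CHO2 (-0.05) did not pass. The inositol monophosphatase genes INM1 (1.46, SE 0.38) and INM2 (1.60, SE 0.35), for the step after Ino1, rose in this late window as deposited and centred on the genes listed in all 25, but not centred on the tested genes (limma adjusted p = 0.0879 for INM1 and 0.147 for INM2). OLE1, the fatty acid desaturase gene, rose at 135 to 240 min against 15 to 120 min (1.16, SE 0.20, limma adjusted p = 0.000103).

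Of 7 Kennedy pathway genes, which make the same lipids from choline and ethanolamine, 0 passed at 255 to 360 min against 0 min, with 3 at an unadjusted limma p under 0.05, beside 41.0% of all genes, and a median of -0.13. Centred on the genes listed in all 25, 2 Kennedy pathway genes were lower, and centred on the tested genes 1 was. PCT1, the gene of the step that makes CDP-choline, rose at 135 to 240 min against 15 to 120 min (0.47, SE 0.12, limma adjusted p = 0.00598), but not with centring on the genes listed in all 25 (0.31, 0.0637). Of 7 cardiolipin genes 2 were higher, UPS1, which brings phosphatidate into the mitochondrion (1.06, SE 0.27), and PGS1, of phosphatidylglycerol phosphate synthesis (1.17, SE 0.39). Neither passed with centring (limma adjusted p = 0.0786 and 0.155 on the genes listed in all 25). PGS1 was listed in 17 of 25 libraries, and its 0 min value of 3.15 lay near the listing limit there, 2.77. Libraries that do not list PGS1 are left out of its window means. Of 6 phosphoinositide kinase and phosphatase genes, 1 was higher, the phosphatidylinositol phosphate kinase gene FAB1 (1.55, SE 0.33, limma adjusted p = 0.000674). Of 8 further regulators 3 were higher, UBX2, of the degradation machinery in the endoplasmic reticulum (1.78, SE 0.47), the phosphatase subunit gene REG1 (0.93, SE 0.31) and the histone deacetylase gene RPD3 (0.73, SE 0.28). Of these 3 UBX2 passed with centring on the genes listed in all 25 (limma adjusted p = 0.0313), and none with centring on the tested genes. Of the paralogs ITR2 and PSD2, both tested, 0 passed, with 1 at an unadjusted limma p under 0.05.

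**Figure D5:**
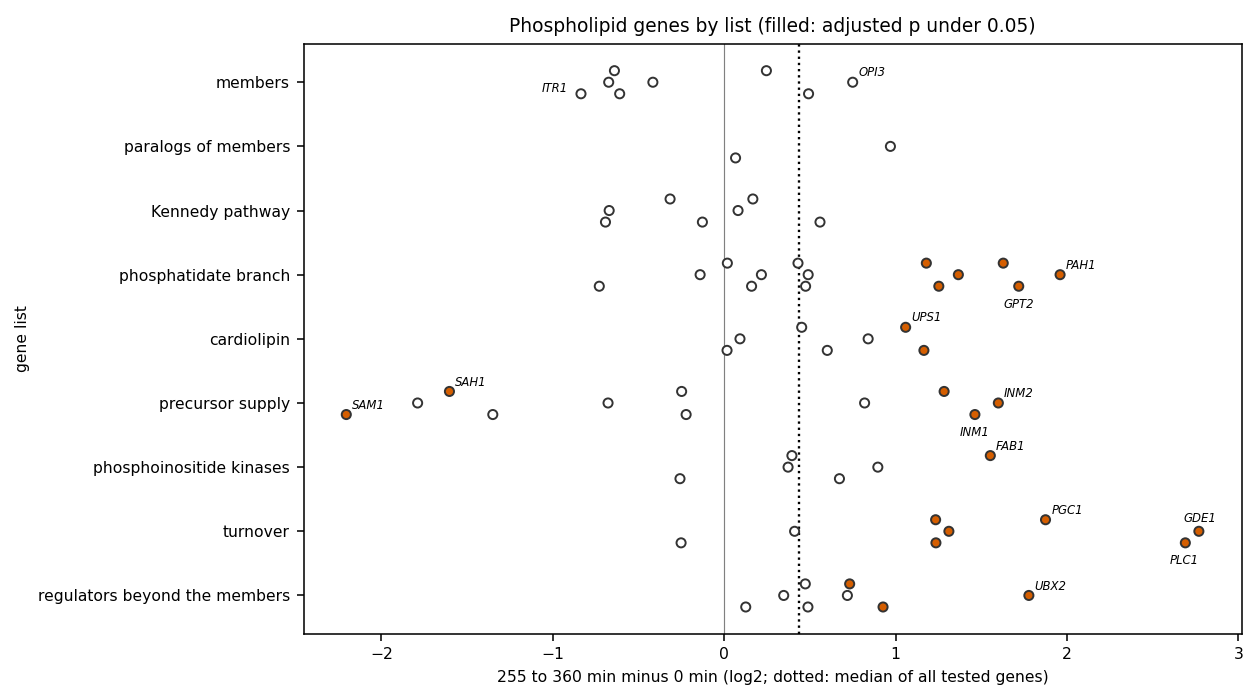
Difference between 255 to 360 min and 0 min, in log2 on the horizontal axis, for the tested members and 63 other phospholipid genes by list; filled points passed at a limma adjusted p under 0.05 and the dotted line is the median of all genes tested, 0.43. No member is filled, GDE1 and PLC1 lie farthest right at 2.77 and 2.69, and SAM1 lies farthest left at -2.21.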

How the data were processed

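RNA abundance was read from 1 deposited table of 25 libraries. Reads were aligned with Bowtie to build R64, per the submitters' processing notes; the tool version, the annotation and the counting step are not given there or in the labels. The values the authors deposited are log2 RPM, as their sums per library show, although the series text describes ratios to the first sample. The smallest value of each library stands for 10 reads, and 93.5% to 95.4% of values were whole reads within 0.02 reads. Of 6701 rows, 51 without a name and 2 under 1 name were dropped.

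Groups were compared with limma 3.58.1 in R 4.3.3 (lmFit, eBayes) in a single fit with 0 min and the 3 windows as levels. P-values were adjusted by Benjamini-Hochberg over all genes tested, with 0.05 as threshold. Testing required values in 6 of the 8 libraries per window, plus the 0 min library where it was compared. That lone library was given the spread of the others. The spline test, a moderated F test with 4 degrees of freedom, required 20 of the 24 no phosphate libraries. Blocks of 4 neighbouring times required 3 of 4 values and were added after seeing the data. Neighbouring times stand in for replicates and may come from 1 culture. The p-values rest on the spread between them, which holds change over time within a window as well as any technical variation. The fits treat neighbouring times as independent, which they may not be. Alternatives covered scaling, listing filters, pseudocounts, prior, weights and left-out libraries. Upstream sequences and coordinates came from the RefSeq R64 genome. Fits were tested on simulated data with independent noise and no trend within windows. That simulation therefore does not bear on dependence between neighbouring times or on shifts of whole libraries.

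The members, the pathway lists and the tests were chosen with earlier results of these data known. Named were all members, up to 4 genes per pathway list that passed with the largest differences, the 3 genes most correlated with each member listed in all 25 libraries, VTC4, and SAM2, which was added after its values were seen.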

Additional observations from a re-analysis of the deposited data

Results flagged for a closer look

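CHO2 at 345 min stood apart from the other 7 libraries of 255 to 360 min. It read 7.50 log2 RPM on 34 reads, with a counting standard error of 0.25, against 8.50 to 8.76 in the others, and the gap made up 0.796 of the range. ITR1 at 195 min stood apart in 135 to 240 min. It read 9.32 on 68 reads, with a counting standard error of 0.18, against 8.20 to 8.58, and the gap was 0.665 of the range. These are the 2 shallowest libraries. Of 24 groups of values examined, chance sets apart about 1 in 20. Leaving both libraries out moved no count of passing members in the windows or the spline.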

How the results depend on the processing

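No paired analysis was possible because the labels carry no replicate numbers and each time is 1 library. Each value below is a log2 difference or a count of the 8 tested members that passed, and the cause of each change was not tested. With 1 library left out at a time, the count stayed at 0 at 15 to 120 min and at 255 to 360 min against 0 min. Beside it, 0.539% to 2.6% and 29.0% to 32.2% of all genes passed. The count ranged from 0 to 1 at 135 to 240 min against 0 min, beside 23.2% to 27.9% of all genes. It ranged from 1 to 2 at 135 to 240 min against 15 to 120 min, beside 18.9% to 30.2%. At 255 to 360 min against 135 to 240 min it ranged from 0 to 2, beside 1.38% to 3.48%. For the spline it ranged from 3 to 7, beside 25.1% to 34.6%. At 135 to 240 min against 0 min 0 members passed centred on the tested genes, beside 12.9% of all genes, and 2 with array weights (ITR1 lower, PIS1 higher), beside 41.6%. Centred on the genes listed in all 25 libraries the 1 that passed was PSD1, lower (-1.11), beside 8.33% of all genes lower. In the last window against 0 min 2 passed centred on the tested genes, 3 centred on the genes listed in all 25 and 1 (ITR1) with array weights, beside 43.0% of all genes. At 135 to 240 min against 15 to 120 min 2 passed (PSD1 and PIS1) with only genes listed in all 25 libraries (42.1% of all genes) or without the 90 and 105 min libraries (15.3%), and 3 (with ITR1) with array weights (20.8%), while both centrings left PSD1 alone (12.1% on the tested genes and 17.3% on the genes listed in all 25). Between 255 to 360 min and 135 to 240 min 1 passed (PIS1, lower) centred on the genes listed in all 25, with only those genes, with a pseudocount of 10 and with a trended prior, beside 2.54% to 5.44% of all genes, and 2 (CHO1 and PIS1) with array weights (22.8%) or without the 90 and 105 min libraries (5.48%).

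Signs turned 49 times over 16 differences, and in 0 of these did the turned value pass. At 15 to 120 min against 0 min, centring on the tested genes gave -0.073 for PIS1 and -0.072 for INO4, and on the genes listed in all 25 -0.053 for PIS1 and -0.052 for INO4. CHO1 and CHO2 gave 0.21 and 0.17 with array weights and 0.25 and 0.24 without the 90 and 105 min libraries, with leave-one-out ranges of -0.14 to 0.14 and -0.10 to 0.12. At 135 to 240 min against 0 min CHO1 gave -0.57 and -0.40 under the centrings, -0.035 with array weights and -0.012 without the 195 and 345 min libraries (leave-one-out -0.012 to 0.084), and INO4 gave -0.15 centred on the tested genes. In the last window against 0 min PIS1 gave -0.34 and -0.19 under the centrings and INO4 -0.10 centred on the tested genes. At 135 to 240 min against 15 to 120 min CHO1 gave -0.28 and -0.14 under the centrings, -0.24 with array weights and -0.21 without the 90 and 105 min libraries (leave-one-out -0.10 to 0.18). OPI3 gave -0.0079 centred on the tested genes, -0.058 with array weights and -0.15 without the 90 and 105 min libraries, and INO4 -0.062 centred on the tested genes and -0.084 with array weights. CHO2 ranged from -0.18 to 0.046 and OPI1 from -0.17 to 0.018 leaving 1 library out. Between 255 to 360 min and 135 to 240 min OPI3 gave 0.023 and PSD1 -0.028 with array weights, and PSD1 gave -0.029 without the 195 and 345 min libraries, with leave-one-out ranges of -0.053 to 0.11 for PSD1 and -0.044 to 0.12 for INO4.

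Depth limits INO1 most, and INO2 too if it was counted, and the single 0 min library limits every comparison with it.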
